A study of Mus musculus with 10 samples.

Results

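Integrins and laminins were examined in hearts of mouse embryos that lack the coxsackie–adenovirus receptor (CAR, gene Cxadr), an adhesion protein of the immunoglobulin superfamily. The genes were chosen by name, as the integrin alpha subunits (Itga), integrin beta subunits (Itgb) and laminin chains (Lama, Lamb, Lamc) for which at least 1 array row names no other gene. This gave 34 genes of the 19938 measured, with 16 alpha subunits, 8 beta subunits and 10 laminin chains. The name pattern leaves out Itga2b and Itgad, and rows that name Itgam together with Rpl35 were not used.

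RNA from 5 WT samples (CAR +/+) and 5 CAR KO samples (CAR -/-) was measured on Affymetrix Mouse Gene 1.0 ST arrays. Each sample was a pool of 3 hearts dissected at E10.5, which makes 15 hearts per genotype. The embryos came from matings of CAR +/- mice of the line B6.Cg-Cxadr tm1/Fgr, in which the gene is inactivated in every tissue, and no treatment was given. The labels do not say whether samples of a genotype came from separate litters, so the p-values measure the spread between these pools. In pooled hearts, fewer cells of a type and less RNA per cell cannot be told apart.

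Integrins are receptors made of 1 alpha and 1 beta subunit, which span the cell membrane and link the extracellular matrix to the cytoskeleton. The alpha subunit largely sets which ligand is bound, and the beta subunit Itgb1 pairs with most of the alpha subunits found outside blood cells. Laminins are trimers of an alpha, a beta and a gamma chain that form the sheet of the basement membrane around cardiomyocytes and under endothelium and epicardium. In the embryonic heart, the fibronectin receptor Itga5 with Itgb1 is known for its part in vessel and heart formation, and Itga4 for attachment of the epicardium.

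Values are log2 signals as deposited, so a difference of 1 is a 2-fold difference. Background was set at a log2 signal of 6.51, below which lay 95% of 1210 clusters for odorant or vomeronasal receptors, genes that should be silent in heart, and a mean over the 10 samples above it counted as above background. Of all genes, 73.5% lay above this level. Array medians ran from 7.65 to 7.73. The deleted gene itself fell in CAR KO, with a log2 fold change of -1.91 (95% CI -2.14 to -1.69, limma's moderated test with Benjamini-Hochberg adjustment, adjusted p = 1.4e-05), from 8.24 to 8.66 in WT to 6.23 to 6.69 in CAR KO. Samples also differed in liver and yolk sac transcripts, whose mean log2 signal over 12 genes was lowest at 6.86 (CAR KO sample 3) and highest at 9.97 (CAR KO sample 5), with WT samples 5 and 2 next at 9.09 and 9.06.

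Of the 34 genes, 30 lay above background, namely 13 of 16 alpha subunits, 7 of 8 beta subunits and all 10 laminin chains. Itgae, Itgam, Itgax and Itgb6 did not. Itgae, Itgam and Itgax are alpha subunits of leukocytes, and Itgb6 is a beta subunit of epithelia. Itgam exceeded the level in 1 sample, CAR KO sample 5, at 6.83.

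No integrin or laminin passed the threshold between the genotypes at an adjusted p under 0.05 (limma), against 0.00345% of the 28944 transcript clusters tested, a single cluster, that of Cxadr. At an unadjusted p under 0.05, 1 of the 34 genes was lower in CAR KO, Itga5, where 1.43% of all clusters were, and 0 were higher, where 0.978% were. The 95% confidence interval stayed inside 1.5-fold, up or down, for 34 of 34 genes, and for 97.3% of all clusters. Within the narrower limit of 1.2-fold they lay for 12 of 34 genes, against 60.6% of all clusters. WT and CAR KO overlapped in every one of the 34 genes, where 0.359% of all clusters had no overlap. Estimates below 0 numbered 19 (55.9%) and those above 0 numbered 15, where 43.9% of all clusters lay below 0. Of the 30 members above background, 19 (63.3%) lay below 0, against 50.1% of all genes above background. The median log2 fold change was -0.057 for alpha subunits, -0.0080 for beta subunits and -0.046 for laminin chains, beside 0.011 over all clusters. Over all genes above background the median was -0.00021.

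**Figure D1:**
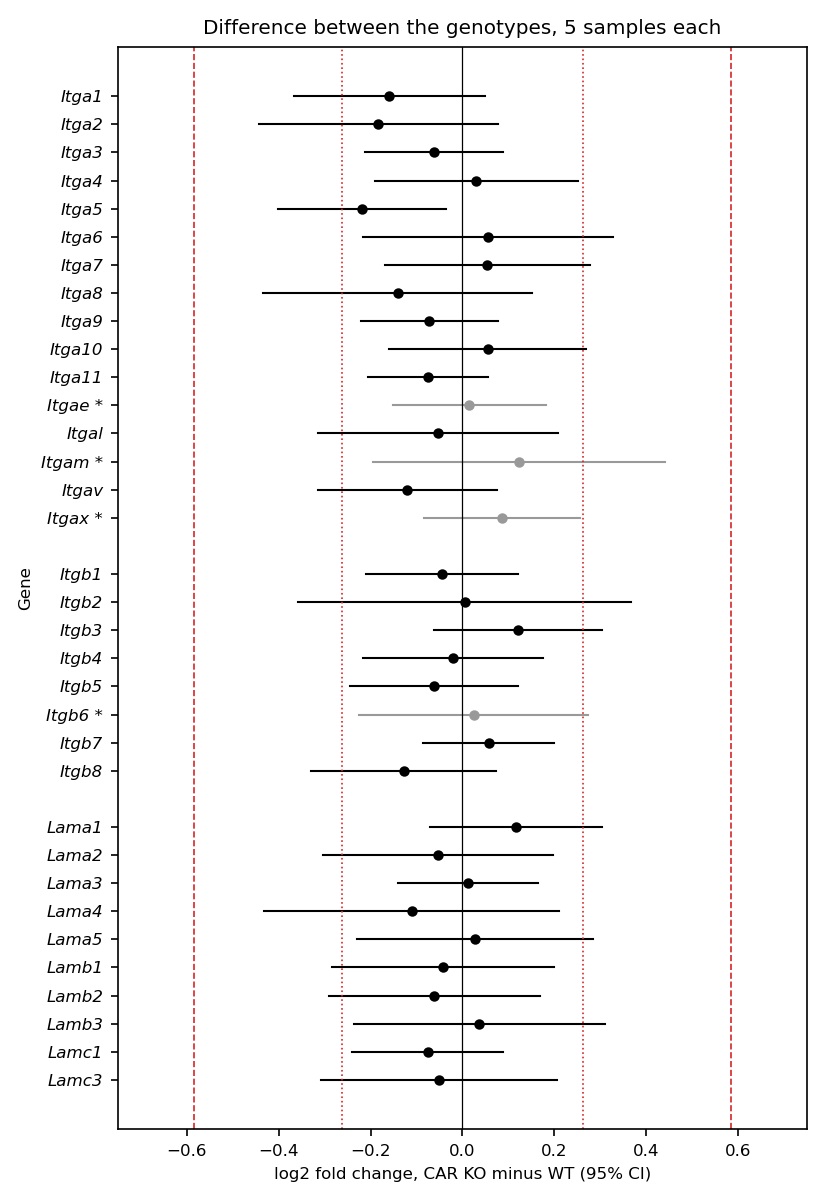
Difference between CAR KO and WT for each integrin and laminin gene, as the log2 fold change (points, horizontal axis) with its 95% confidence interval (lines), for 5 samples per genotype; dashed lines mark a 1.5-fold and dotted lines a 1.2-fold change, and gray genes with an asterisk lie below background. All 34 intervals stay inside the dashed lines, and that of Itga5 alone, from -0.40 to -0.035, does not reach 0.

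Itga5 pairs with Itgb1 to form the main fibronectin receptor. Its log2 signal was 11.29, 11.14, 11.28, 11.30 and 11.18 in WT samples 1 to 5 and 11.26, 11.08, 10.84, 11.07 and 10.85 in CAR KO samples 1 to 5. CAR KO samples 3 and 5 were the lowest, and CAR KO sample 1 lay within the range of WT. The log2 fold change was -0.22 (SE 0.084, 95% CI -0.40 to -0.035, unadjusted p = 0.024, adjusted p = 1.0 in limma). The exact permutation test of this gene alone, two-sided, gave p = 0.040, where 0.00794 is the smallest possible. The unadjusted p rose to 0.051 without WT sample 1, 0.053 without WT sample 4, 0.064 without CAR KO sample 3 and 0.057 without CAR KO sample 5, and the fold change then lay between -0.20 and -0.17. With array weights it was 0.069. The mean of 5 epicardial markers was also lower in CAR KO, by -0.32 on the log2 scale, with a range of 10.39 to 10.63 for WT and of 9.99 to 10.47 for CAR KO. In all 5 markers the estimate was below 0, and none was called after adjustment. Among other lists of cell type markers, the difference of means ran from -0.22 (macrophage) to 0.21 (megakaryocyte and platelet). Over the 10 samples, Itga5 varied with the epicardial mean at Pearson's r = 0.66 (permutation p = 0.037, adjusted 0.19). Without CAR KO samples 4 and 5, r was 0.47. With the endothelial and endocardial mean, r was 0.69 (permutation p = 0.026, adjusted 0.15), and 0.74 without sample 5 of either genotype. Spearman's rho was 0.37 (permutation p = 0.30, adjusted 0.66) with this mean. With the epicardial mean, rho was 0.66 (permutation p = 0.043, adjusted 0.40). An r at least as high was found for 14.2% of all genes above background with the endothelial and endocardial mean. For the epicardial mean the share was 3.29%. The part of these cell types in the Itga5 difference was not tested.

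The promoters shown are those of Itga5 and of its partner Itgb1. They were picked after values and motif matches had been seen, and other candidates were set aside, Itga1 and Lamb2 because their windows held none of the motifs searched, and Itgav and Lamb1 because theirs overlap the annotated gene. They are the 250 bases before the RefSeq start on the gene's strand in GRCm38.p6, at chr15:103366792-103367041 (minus strand) and chr8:128685404-128685653 (plus strand). Capitals mark a GC box, searched as GGGCGG on both strands.
Itga5: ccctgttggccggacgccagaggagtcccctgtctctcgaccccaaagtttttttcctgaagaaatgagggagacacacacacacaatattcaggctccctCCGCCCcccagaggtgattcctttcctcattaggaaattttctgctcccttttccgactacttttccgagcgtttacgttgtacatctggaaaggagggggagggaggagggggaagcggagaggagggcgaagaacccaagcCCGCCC
Itgb1: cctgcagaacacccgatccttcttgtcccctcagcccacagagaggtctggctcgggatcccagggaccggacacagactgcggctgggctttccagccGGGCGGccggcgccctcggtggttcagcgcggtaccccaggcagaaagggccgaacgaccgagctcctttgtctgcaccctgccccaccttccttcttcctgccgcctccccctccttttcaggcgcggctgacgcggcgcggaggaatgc
The Itga5 window held 2 such matches and the Itgb1 window 1. TATA boxes (TATAAA) and CCAAT boxes (CCAAT), searched on both strands, were matched in neither window. Promoter windows were found for 22 of the 34 genes, 25 in all, of which 9 held a GC box, 0 a TATA box and 4 a CCAAT box. Over all 32851 windows of the same length the shares were 32.7%, 12.4% and 33.8%.

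**Figure D2:**
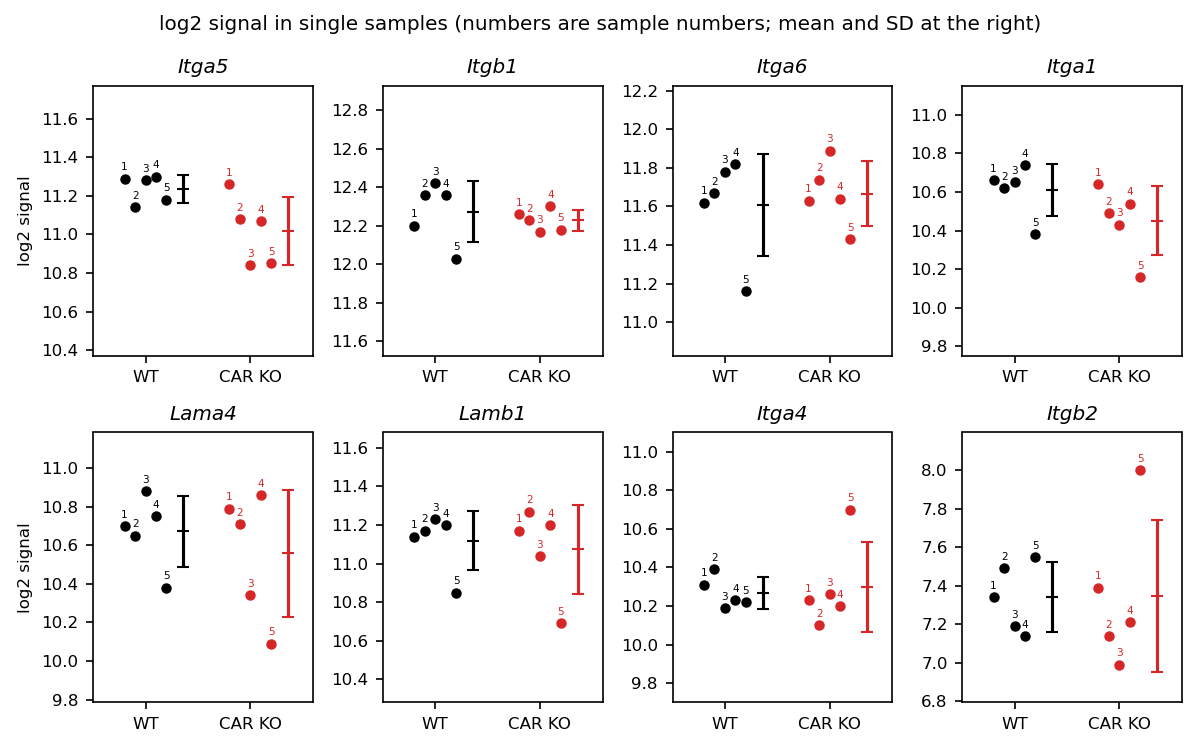
log2 signal (vertical axis) of 8 genes in each pool of hearts, WT in black and CAR KO in red, each panel 1.4 log2 units high; digits are sample numbers, and the bar beside each group is the mean with the SD (n = 5). The genotypes overlap in every panel, and sample 5 of either genotype lies at an edge in several.

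Itgb1 was the most widely pairing subunit of the set. Its log2 signal was 12.20, 12.36, 12.42, 12.36 and 12.03 in WT and 12.26, 12.23, 12.17, 12.30 and 12.18 in CAR KO. All CAR KO samples lay inside the range of WT, and the log2 fold change was -0.045 (95% CI -0.21 to 0.12).

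The laminin-binding alpha subunits are Itga3, Itga6 and Itga7, of which Itga7 is the form known from mature muscle. Itga6 gave 11.62, 11.67, 11.78, 11.82 and 11.16 in WT and 11.63, 11.74, 11.89, 11.64 and 11.43 in CAR KO. Sample 5 was the lowest in each genotype, and the log2 fold change was 0.056 (95% CI -0.22 to 0.33). For Itga3 the signals were 9.26, 9.37, 9.46, 9.39 and 9.23 in WT and 9.29, 9.44, 9.23, 9.15 and 9.29 in CAR KO, a log2 fold change of -0.061 (95% CI -0.21 to 0.089). Itga7 read 7.13, 7.22, 6.92, 7.05 and 6.83 in WT and 7.12, 7.09, 7.03, 7.36 and 6.82 in CAR KO, a log2 fold change of 0.054 (95% CI -0.17 to 0.28). None of these receptors differed beyond the spread between samples.

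Collagens are bound by Itga1, Itga2, Itga10 and Itga11, all paired with Itgb1. Itga1 had a log2 fold change of -0.16 (95% CI -0.37 to 0.048) and Itga2 one of -0.18 (95% CI -0.44 to 0.077). Itga1 ran from 10.16 to 10.74 and Itga2 from 8.36 to 9.01 over the 10 samples. Itga10 and Itga11 gave 0.055 (95% CI -0.16 to 0.27) and -0.075 (95% CI -0.21 to 0.057). Itga1 reached an unadjusted p under 0.05 when WT sample 5 or the 3 or 4 samples richest in liver transcripts were left out and with a replicate block, as did Itga2 with CAR KO sample 1 left out, and neither was called after adjustment.

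Itga4, a receptor for fibronectin and VCAM-1, gave 10.31, 10.39, 10.19, 10.23 and 10.22 in WT and 10.23, 10.10, 10.26, 10.20 and 10.70 in CAR KO. CAR KO sample 5 stood above all the others, and the log2 fold change was 0.030 (95% CI -0.19 to 0.25), or -0.070 without that sample. Itga8, a receptor for nephronectin, was among the most variable, at 8.22, 8.51, 8.43, 8.79 and 8.62 in WT and 8.26, 8.45, 8.41, 8.01 and 8.74 in CAR KO. The lowest sample, CAR KO 4, lay below all of WT, while CAR KO 5 lay near the top of WT, with a log2 fold change of -0.14 (95% CI -0.43 to 0.15). Itgav, the alpha subunit of the vitronectin receptors, gave -0.12 (95% CI -0.31 to 0.075), and Itga9, which binds tenascin, -0.072 (95% CI -0.22 to 0.077).

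The beta subunits that pair with Itgav are Itgb3, Itgb5, Itgb6 and Itgb8, of which Itgb8 is known for activating latent TGF-beta. Their log2 fold changes were 0.12 for Itgb3 (95% CI -0.062 to 0.30), -0.062 for Itgb5 (95% CI -0.24 to 0.12) and -0.13 for Itgb8 (95% CI -0.33 to 0.073). Itgb6 lay below background in all 10 samples. Itgb4, the partner of Itga6 in hemidesmosomes, gave -0.021 (95% CI -0.22 to 0.17).

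Integrins of blood cells were led in spread by Itgb2, the common beta subunit of leukocytes, which had the largest SD within genotypes of the genes above background (0.31). Itgb2 gave 7.34, 7.49, 7.19, 7.14 and 7.55 in WT and 7.39, 7.14, 6.99, 7.21 and 8.0 in CAR KO. CAR KO sample 5 was the highest and CAR KO sample 3 the lowest of all 10, and the log2 fold change was 0.0047 (95% CI -0.36 to 0.37). Its partner Itgal gave -0.053 (95% CI -0.31 to 0.21), and Itgb7, which pairs with Itga4 on lymphocytes, gave 0.058 (95% CI -0.085 to 0.20). The mean of 7 macrophage markers, 5 of them above background, had a range of 7.50 to 7.90 for WT and of 7.25 to 7.74 for CAR KO.

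The chains Lama4, Lama5, Lamb1 and Lamc1 make up the laminins of embryonic vessels and early basement membranes. Lama4 gave 10.70, 10.65, 10.88, 10.75 and 10.38 in WT and 10.79, 10.71, 10.34, 10.86 and 10.09 in CAR KO. WT sample 5 and CAR KO samples 3 and 5 were low, and the log2 fold change was -0.11 (95% CI -0.43 to 0.21), or 0.0064 without CAR KO sample 5. Lamb1 gave 11.14, 11.17, 11.23, 11.20 and 10.85 in WT and 11.17, 11.27, 11.04, 11.20 and 10.69 in CAR KO, a log2 fold change of -0.042 (95% CI -0.28 to 0.20). Sample 5 was again the lowest in each genotype. Lamc1, the gamma chain of most laminins, gave 11.56, 11.54, 11.68, 11.66 and 11.40 in WT and 11.60, 11.62, 11.35, 11.50 and 11.39 in CAR KO, a log2 fold change of -0.075 (95% CI -0.24 to 0.089). Lama5 gave 9.29, 9.02, 8.99, 9.05 and 9.01 in WT and 9.09, 9.43, 9.22, 9.05 and 8.70 in CAR KO, with a log2 fold change of 0.028 (95% CI -0.23 to 0.28). The highest and the lowest Lama5 values were both in CAR KO.

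Of the other chains, Lama2 is the alpha chain of muscle laminin and Lama1 that of the earliest embryonic basement membranes. Lama1 gave 0.12 (95% CI -0.071 to 0.30), Lama2 -0.053 (95% CI -0.30 to 0.20) and Lamb2 -0.061 (95% CI -0.29 to 0.17) as log2 fold changes. Lama3 and Lamb3, chains of the epithelial laminin of skin, gave 0.012 (95% CI -0.14 to 0.16) and 0.037 (95% CI -0.24 to 0.31), and Lamc3 gave -0.050 (95% CI -0.31 to 0.21). Lamb3 had the largest SD within genotypes among these (0.22), though not the largest range, with 7.51, 7.79, 7.62, 7.67 and 7.34 in WT and 7.68, 7.86, 7.34, 7.88 and 7.35 in CAR KO. Its low values were those of WT sample 5 and CAR KO samples 3 and 5, as for Lama4.

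**Figure D3:**
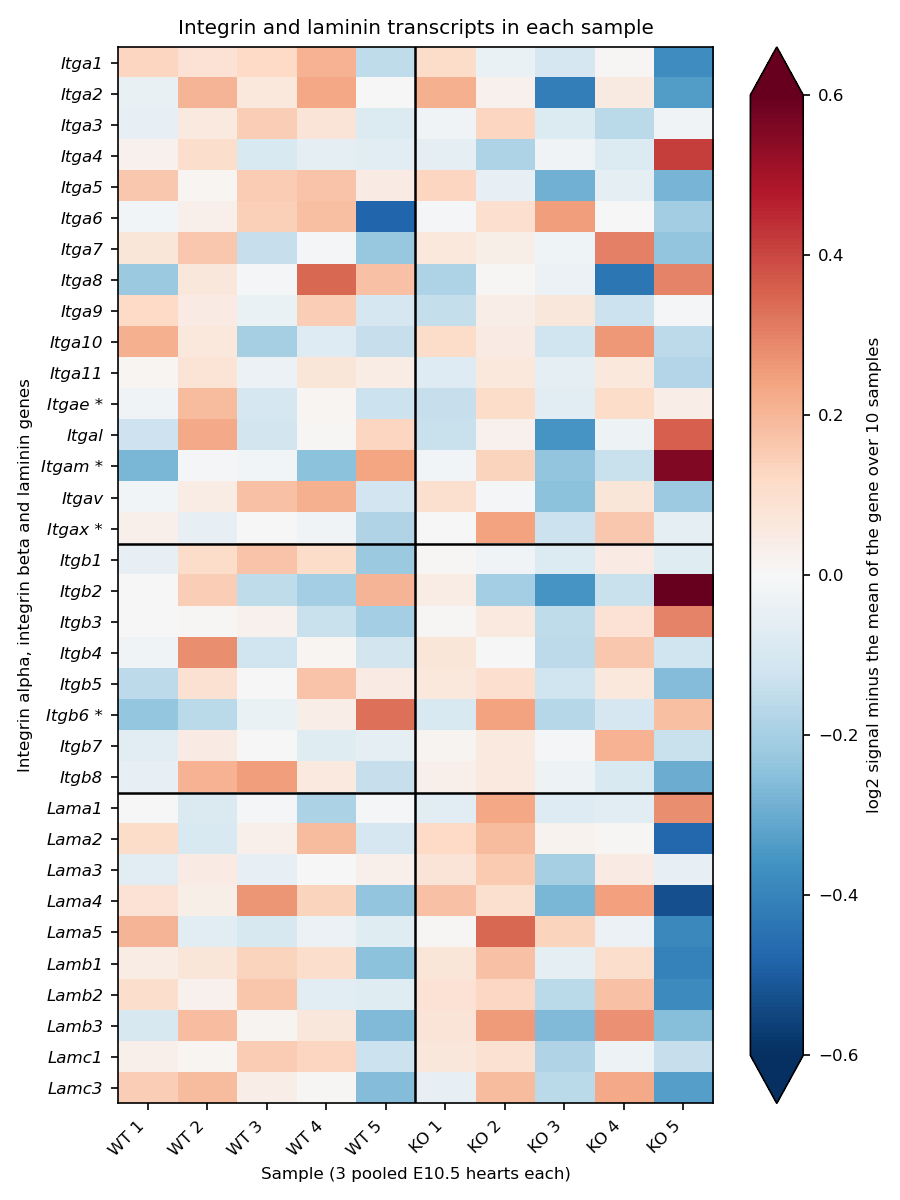
log2 signal of each integrin and laminin gene (rows) minus its mean over the 10 samples (columns), from blue (lower) to red (higher); genes with an asterisk lie below background. Laminin chains are lowest in CAR KO sample 5 in 6 of 10 rows, while Itgb2 and Itgam are highest there.

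Subunits that form known dimers or trimers were compared over the 10 samples, both genotypes together, for 32 pairs. Of these, 25 had a positive Pearson's r, with a median of 0.72 in the 10 laminin pairs and 0.41 in the 12 pairs with Itgb1. An r at least as far from 0 in the same direction was found for 0.157% to 26.5% of all genes above background across the laminin pairs and for 1.49% to 47.3% across the pairs with Itgb1, so many of these values were common. After Benjamini-Hochberg adjustment over the 32 pairs, 7 permutation p-values were under 0.05. Lama4 and Lamb2 gave r = 0.93 (permutation p = 0.00021, adjusted 0.0067, Spearman's rho = 0.85 with permutation p = 0.0027) and r = 0.75 without the 2 samples farthest from the median of Lamb2. Lama4 and Lamb1 gave r = 0.92 (permutation p = 0.00078, adjusted 0.012, rho = 0.84 with permutation p = 0.0034) and 0.80 without 2 samples. An r as high with Lamb2 was found for 0.157% of all genes above background in place of Lama4, and with Lamb1 for 1.03%.

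Lamb1 and Lamc1 gave r = 0.78 (permutation p = 0.0051, adjusted 0.033, rho = 0.78 with permutation p = 0.010) and 0.82 without 2 samples. Itgav and Itgb1 gave r = 0.78 (permutation p = 0.0075, adjusted 0.034, rho = 0.90 with permutation p = 0.00082) and 0.84 without 2 samples. The other 3 pairs rested on the samples left out. Lama2 with Lamb1 went from r = 0.86 (permutation p = 0.0041, adjusted 0.033, rho = 0.66 with permutation p = 0.043) to 0.33, Itgal with Itgb2 from 0.82 (permutation p = 0.0032, adjusted 0.033, rho = 0.59 with permutation p = 0.080) to 0.48, and Itgam with Itgb2 from 0.81 (permutation p = 0.0072, adjusted 0.034, rho = 0.65 with permutation p = 0.048) to 0.41. Itga5 and Itgb1 gave r = 0.39 (permutation p = 0.27, adjusted 0.38, rho = 0.49 with permutation p = 0.15) and 0.57 without 2 samples.

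The 34 genes were also set against the means of 10 marker lists, which made 340 relations, of which 1 had an adjusted permutation p under 0.05 for Pearson's r. This was Itgb2 with the liver and yolk sac genes (r = 0.92, permutation p = 0.00012, adjusted 0.041, rho = 0.78 with permutation p = 0.010, adjusted 0.29), and r = 0.83 without WT sample 5 and CAR KO sample 5. By Spearman's rho, 1 other relation had an adjusted permutation p under 0.05, that of Itga7 with cushion mesenchyme (rho = -0.95, permutation p = 0.00010, adjusted 0.034), where r was -0.85 (permutation p = 0.0018, adjusted 0.061) and -0.67 without the same 2 samples. Several relations lay just short of the threshold, and only some are given here. Lama4, Lamb1 and Itga1 varied with 7 endothelial and endocardial markers at r = 0.94, 0.93 and 0.93, with adjusted permutation p-values of 0.061, 0.061 and 0.054 and rho = 0.72, 0.61 and 0.65 (permutation p = 0.024, 0.066 and 0.049). Without WT sample 5 and CAR KO sample 5, r was 0.82, 0.57 and 0.71. The same genes also varied with 7 cardiomyocyte markers, at r = 0.87, 0.95 and 0.85, with an adjusted permutation p of 0.061 for each and rho = 0.87, 0.70 and 0.71 (permutation p = 0.0022, 0.031 and 0.027), and r was 0.71, 0.41 and 0.29 without these samples. For Lamb1 the r with cardiomyocyte markers was the higher over all 10 samples (0.95 against 0.93). It was the lower without WT sample 5 and CAR KO sample 5 (0.41 against 0.57). Lamc3 varied against cushion mesenchyme at r = -0.90 (permutation p = 0.00035, adjusted 0.054, rho = -0.83 with permutation p = 0.0044), or -0.71 without the same samples. Itga10 did so at r = -0.82 (adjusted permutation p = 0.061), or -0.90 without them. Itgav, Itgb8 and Lamc3 varied with the endothelial and endocardial markers at r = 0.83, 0.82 and 0.84 (adjusted permutation p = 0.061 for each). Without the same samples, r was 0.84, 0.50 and 0.51. Itgam (below background) and Itgb2 varied with the megakaryocyte and platelet markers at r = 0.91 and 0.87 (adjusted permutation p = 0.061 and 0.064). Without CAR KO samples 3 and 5, r was 0.72 and 0.51. None of these relations passed the correction.

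**Figure D4:**
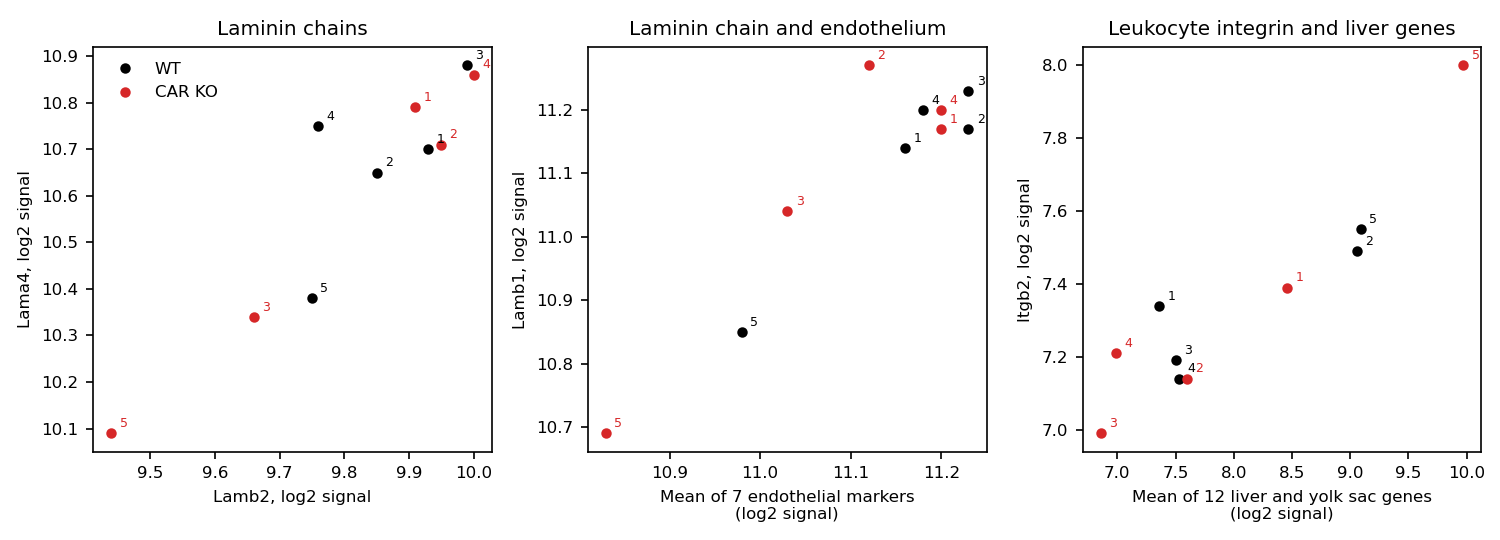
log2 signals of 10 samples for Lama4 against Lamb2, Lamb1 against the mean of 7 endothelial and endocardial markers, and Itgb2 against the mean of 12 liver and yolk sac genes; black points are WT, red points CAR KO, and digits are sample numbers. CAR KO sample 5 lies at an end of each plot, lowest for the 3 laminin chains and highest for Itgb2.

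Partners of integrins and laminins were taken from 4 lists, of which 73 genes had a row, all above background. They cover other basement membrane components, integrin ligands, proteins at the cytoplasmic tail of integrins, and membrane proteins that associate with integrins or bind laminin. None passed the threshold after adjustment (limma). At an unadjusted p under 0.05 there were 3, all lower in CAR KO, where 1.43% of all clusters were lower and 0.978% higher. Of the 14661 genes above background, 314 were lower at this p and 109 higher. Sgcd, a sarcoglycan of the dystrophin complex, gave a log2 fold change of -0.31 (95% CI -0.53 to -0.092, unadjusted p = 0.0095). It read 8.45, 8.44, 8.63, 8.84 and 8.55 in WT and 8.59, 8.22, 8.22, 8.14 and 8.17 in CAR KO, so that only CAR KO sample 1 lay inside the range of WT. Fbln2, a fibulin of the matrix, gave -0.31 (95% CI -0.60 to -0.023, unadjusted p = 0.036), with low values of 10.30 and 10.23 in CAR KO samples 3 and 5. Tns1, a tensin that binds integrin tails, gave -0.25 (95% CI -0.47 to -0.031, unadjusted p = 0.029). Sgcd kept an unadjusted p under 0.05 in all 20 alternatives. Fbln2 lost it with the methods' t-test, on leaving out any of WT samples 2 to 5 or either of CAR KO samples 3 and 5, and on leaving out the 3 or the 4 liver-rich samples. Tns1 lost it with the methods' t-test, array weights and the mean of a gene's rows, on leaving out either of WT samples 4 and 5 or either of CAR KO samples 3 and 5, and on leaving out the 3 liver-rich samples. Other partners had an unadjusted p under 0.05 in some alternatives, among them Ilk and Parva with the methods' t-test.

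Intervals lay within 1.5-fold for 66 of the 73 partners (90.4%) and within 1.2-fold for 37 (50.7%). The shares were 97.3% and 60.6% over all clusters, and 97.1% and 63.9% over genes above background. Fn1, the fibronectin bound by Itga5, gave -0.087 (95% CI -0.22 to 0.042), and Hspg2, the basement membrane proteoglycan perlecan, -0.0079 (95% CI -0.26 to 0.25). Col4a1 and Nid1, which encode type IV collagen and nidogen, gave -0.13 (95% CI -0.37 to 0.12) and -0.15 (95% CI -0.31 to 0.018). Tln1 and Ilk, which couple integrin tails to actin, gave -0.041 (95% CI -0.19 to 0.11) and -0.074 (95% CI -0.19 to 0.037). Dag1, the laminin receptor dystroglycan, gave -0.091 (95% CI -0.22 to 0.040), and the tetraspanin Cd151, an associate of laminin-binding integrins, -0.048 (95% CI -0.24 to 0.14).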

How the data were processed

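mRNA was measured in pooled E10.5 hearts, with 5 samples per genotype. The values used are the log2 signals that the authors deposited in a single table of 35556 rows. The submitters' processing notes name MAS5; the step from scanner output to log2 signal was not given in the sources used here. Control rows (6612) were left out, which left 28944 transcript clusters, of which 21789 name 1 gene by the platform annotation, 1621 several and 5534 are unnamed here. Each gene was represented by its brightest row naming no other gene; all 34 integrins and laminins had 1 row and matched RefSeq (GRCm38.p6) by Entrez identifier. No 2 samples held the same values (correlations 0.987 to 0.998). The number of arrays limits the precision.

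The comparison of genotypes was fitted by lmFit and eBayes of limma 3.58.1 (R 4.3.3), without trend or filter, with Benjamini-Hochberg adjustment across the 28944 clusters and a threshold of 0.05. Confidence intervals are those of single genes. Correlations used 100000 permutations. The code was tested on simulated data. Figures were drawn with matplotlib 3.10.9. The genes and lists were chosen with earlier results of these data known. Values in every sample are given for members at an unadjusted p under 0.05, the 5 above background with the largest SD within genotypes, Itgb1, Itga3, Itga6, Itga7, Lama4, Lama5, Lamb1, Lamc1, Itga4 and Itga5, and members whose genotypes do not overlap. The pairs of subunits, the plotted genes and relations and the printed promoter windows were chosen after values were seen, the windows also after motif matches were seen. Among the partner symbols, Spp1, Fbn1 and Ptk2 were not analysed here. Alternatives were quantile normalization, centring, a filter on dim clusters (40th percentile), array weights, the methods' t-test, a robust prior with an intensity trend, a block for the sample number, the mean of a gene's rows, and leaving out each sample. Leaving out the 3 or 4 samples richest in liver transcripts was added after the data were seen.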

Additional observations from a re-analysis of the deposited data

Results flagged for a closer look

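In 4 of 68 groups of 5 samples (34 genes in 2 genotypes), 1 sample stood apart from the others by Dixon's criterion; chance gives about 1 in 20, or 3.4 groups. In CAR KO, sample 5 was the highest for Itga4 (10.70, gap over range 0.720) and the lowest for Lama2 (7.77, gap over range 0.724). In WT, sample 1 was the highest for Lama5 (9.29, gap over range 0.811), and sample 5 was the lowest for Lamb1 (10.85, gap over range 0.754). CAR KO sample 5 and WT sample 5 also had the highest mean of liver and yolk sac transcripts, 9.97 and 9.09. Both had the lowest array weights of the 10 samples too, 0.33 and 0.59, where WT sample 4 had the highest, 3.09. The part of liver and yolk sac transcripts or of array quality in these values was not tested.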

How the results depend on the processing

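Cxadr was called and no integrin, laminin or partner was called under any of the 20 alternatives. Fold changes near 0 changed sign in 20 of 34 genes, none over 0.124 in size, and 14 kept their sign; the cause was not tested. With quantile normalization, Itgae gave -0.016 and Itgb2 -0.021, and with centring Itgb2 gave -0.0017. With array weights, 2 clusters were called, 1811 had an unadjusted p under 0.05 (696 in the reported fit) and 2 members did (Itga8 and Itga9); Itga4 gave -0.0055, Itga6 -0.034, Itgae -0.036, Itgb4 0.031, Itgb6 -0.028 and Lamb2 0.018. With a replicate block for the sample number, 1304 clusters and 2 members (Itga1 and Itga5) had an unadjusted p under 0.05. The labels do not say that same-numbered samples are pairs, so the reported fit has no block. As deviations from the genotype means, same-numbered samples correlated at 0.073 to 0.56. The highest correlation was with the same number for 3 of 5 WT and 4 of 5 CAR KO samples. Whether the numbers mark a shared litter or batch was not tested.

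Without the 3 samples richest in liver transcripts, 1214 clusters, 2 members (Itga1 and Itga5) and 1 partner (Sgcd) had an unadjusted p under 0.05; Itga4 gave -0.047, Itga6 -0.014, Itgb2 -0.038, Itgb4 0.057 and Itgb5 0.019. Without the 4 richest, the counts were 1592 clusters and 2 members (again Itga1 and Itga5); Itga11 gave 0.0025, Itga4 -0.059, Itgb2 -0.11, Itgb4 0.038, Itgb5 0.0068 and Lamc3 0.019. Leaving out each sample in turn, 411 (without WT sample 4) to 1029 clusters, 0 to 2 members and 1 (without WT sample 4 or CAR KO sample 3) to 6 partners (without CAR KO sample 4) had an unadjusted p under 0.05. The count of members was 0 when WT sample 1, WT sample 4, CAR KO sample 3 or CAR KO sample 5 was left out, and 2 when WT sample 5 or CAR KO sample 1 was. Fold changes then ranged as follows: Itga4 from -0.070 to 0.081, Itga6 from -0.057 to 0.12, Itga7 from -0.014 to 0.12, Itga10 from -0.0019 to 0.12, Itgae from -0.015 to 0.065, Itgal from -0.15 to 0.028, Itgam from -0.00050 to 0.20, Itgb2 from -0.16 to 0.095, Itgb4 from -0.064 to 0.047 and Itgb6 from -0.032 to 0.11. For the laminin chains the ranges were -0.11 to 0.057 for Lama2, -0.025 to 0.064 for Lama3, -0.19 to 0.0064 for Lama4, -0.055 to 0.13 for Lama5, -0.11 to 0.053 for Lamb1, -0.11 to 0.027 for Lamb2, -0.028 to 0.11 for Lamb3 and -0.12 to 0.027 for Lamc3. Genes near background, such as Itgam, are limited by signal.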
